A study of Mus musculus with 9 samples.

Results

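The integrated stress response genes described here are 10 named mouse genes, Atf4, Atf3, Ddit3, Chac1, Nupr1, Trib3, Asns, Sesn2, Ppp1r15a and Psat1. They were taken by symbol, under a rule that uses no measured value. The list itself was chosen with earlier results of these data known, so comparisons with all tested genes below are descriptive. All 10 were found among 35532 gene symbols, and all 10 were among the 13363 genes that averaged at least 1 CPM, where CPM scales each library's counts to a common depth. RNA was sequenced from 9 clones of the mouse embryonic stem cell line E14, picked out of the bulk line for differing lipid droplet sizes. All 9 clones carry the same labelled genotype and were grown without feeders on gelatin, with foetal bovine serum and leukaemia inhibitory factor, which holds these cells in self-renewal; no stressor or treatment is named. Which clone had which droplet size is not stated in the labels used here, so the clones stand without groups, each as 1 library, and no comparison between conditions was made. Intervals and tests below therefore cover the counting error of single libraries and not the spread between cultures of a clone.

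The integrated stress response is a signalling pathway that joins several kinds of cell stress to the control of translation. Kinases that sense amino acid shortage, unfolded protein in the endoplasmic reticulum, double-stranded RNA or haem shortage phosphorylate the initiation factor eIF2, which lowers general protein synthesis while favouring translation of a few mRNAs, that of the transcription factor ATF4 among them. ATF4 then activates genes for amino acid synthesis and transport, and, with partners such as CHOP, genes of prolonged stress. ATF4 protein is set largely at translation, so the Atf4 transcript level measured here is not a measure of ATF4 activity. In growing stem cells, several of its targets in amino acid metabolism are also expressed without any added stress.

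Estimated counts per clone totalled 10783718 to 14309662. A count of 0 allows up to 3 counts, which is 0.211 to 0.28 CPM at these depths. The markers of pluripotent cells were present in every clone, with Pou5f1 at 842 to 1294 CPM and Sox2 at 234 to 301 CPM. The summed level of 5 pluripotency markers was 2170.1 CPM for clone 11 and 2539 CPM for clone 10, against 3128 to 3331 CPM in the other clones. Of 5 fibroblast markers, Lum, Dcn and Postn did not exceed 0.0766, 0.622 and 0.484 CPM in any clone. The other 2 were collagen genes that stood higher in clones 11 and 10: Col1a1 was at 42.0 and 33.3 CPM there, against 0.656 to 7.14 CPM elsewhere, and Col1a2 at 7.81 and 8.74 CPM, against 0.0722 to 1.44 CPM elsewhere.

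The range over clones was taken as the highest minus the lowest log2 CPM. Of the 10 genes, 5 had a range of 1 or more, against 35.2% of all tested genes, and 3 (Nupr1, Atf3 and Chac1) had a range of 2 or more, against 7.92%. Nupr1 and Atf3 reached the average of 1 CPM only through their 2 highest clones, so a wide range was in part built into their passing. With no filter on low counts, 3 of the 10 genes again had a range of 2 or more, against 10.9% of all genes with a count. The median range was 1.10 for the 10 genes and 0.79 for all tested genes. All 10 genes differed between libraries by more than counting error (chi-square test with Benjamini-Hochberg adjustment over all tested genes), but so did 89.4% of tested genes, so passing that test sets these genes apart very little. Clone 17 held the highest CPM of 8 of the 10 genes, against 11.7% of all tested genes. Clone 17 was singled out after the values were seen, so this comparison is descriptive only. For 3 of these 8, Atf4, Trib3 and Psat1, it stood apart from the next clone beyond counting error. Under median-ratio scaling, and on the TPM scale, the count of genes highest in clone 17 was 7 of 10. Clones 17 and 8 were the 2 highest clones for 6 of the 10 genes, against 11.4% of all tested genes; this pair of clones was singled out after the values were seen. In bulk RNA, more cells that express a gene and more RNA per cell cannot be told apart.

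**Figure D1:**
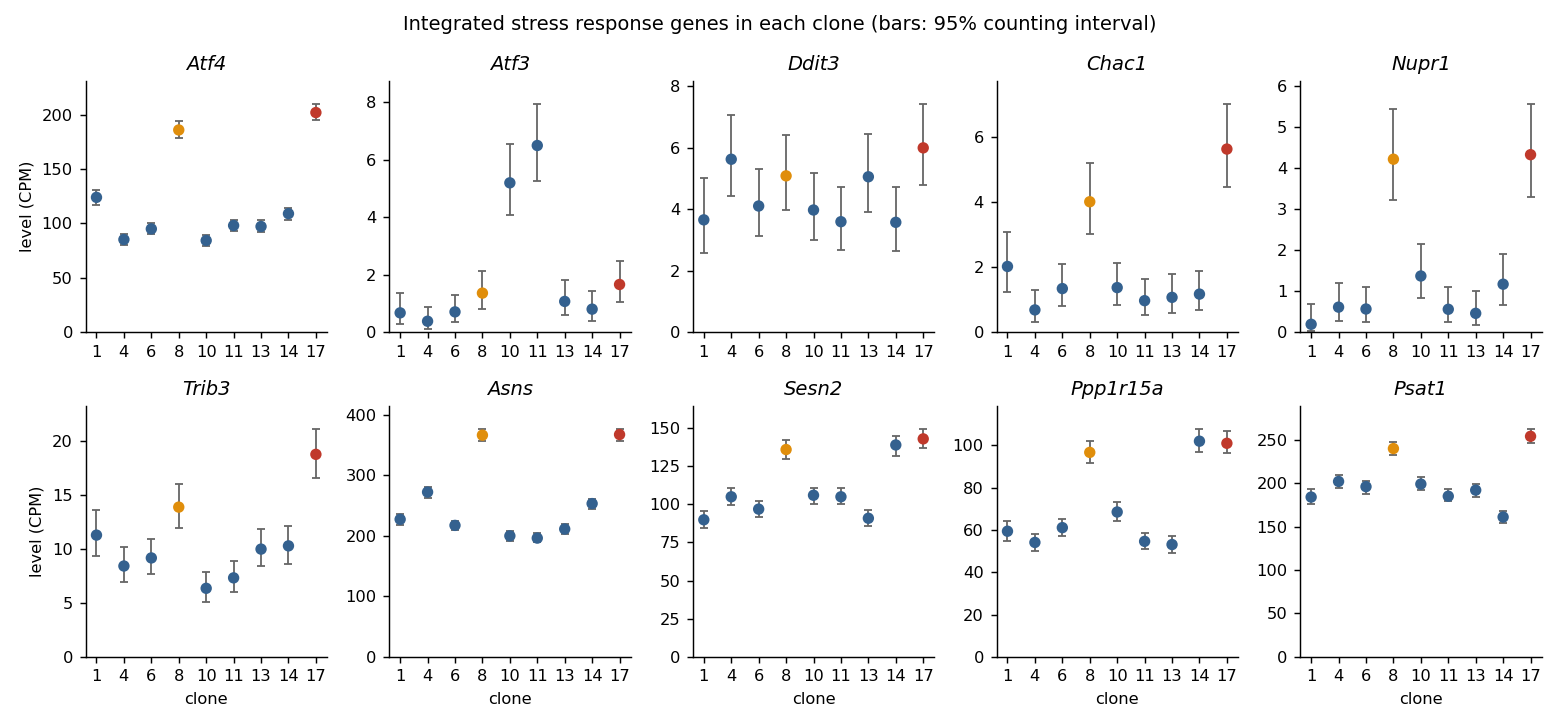
Level of each of the 10 genes in CPM (y axes, from 0) in each of the 9 clones (x axes), with bars for exact 95% counting intervals; clone 17 is drawn in red and clone 8 in orange. Atf4 reached 202 CPM for clone 17 and 186 CPM for clone 8, and stayed at or below 124 CPM elsewhere, while Atf3 peaked in clones 11 and 10.

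Levels per transcript length separate the list into abundant and scarce transcripts. By the authors' TPM values, which correct for transcript length, summed over transcripts, Asns had the highest median of the 10 genes at 219 TPM, followed by Psat1 at 138 TPM and Atf4 at 91.8 TPM. Sesn2 and Ppp1r15a had medians of 44.8 and 37.4 TPM. Ddit3, Trib3, Nupr1, Chac1 and Atf3 were scarce, with medians of 13.3, 7.26, 1.79, 1.21 and 1.03 TPM. The Ddit3 value includes Ddit3-204, a transcript of 105 bases that reached 25.7 TPM from 3.91 counts in clone 6. Its main transcript, Ddit3-201, reached at most 9.71 TPM, so the place of Ddit3 above Trib3 is not firm. The 3 genes with the widest ranges are also the 3 with the lowest medians.

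The promoter windows of the 10 genes were read for known elements, since ATF4 and its partners bind composite elements at many of these genes. RefSeq windows on GRCm38.p6, running from 250 bases before to 50 bases after a RefSeq transcript start, were available for all 10 genes. For Atf3, Nupr1 and Psat1 that start lies well inside the gene span given below, so positions do not count from the end of that span. The C/EBP-ATF composite element, searched on both strands as TGATGNAA, occurred in the windows of 5 of the 10 genes (Atf3, Chac1, Nupr1, Trib3 and Asns), in 3.97% of 32851 windows of the same length and in 4.51% of the genes that have a window. It was also in 14 of 70 other pathway genes with a window, but 70 of 92 is under 80%, so that share is void as a check and nothing particular to the 10 genes follows. A looser form, TGNNGCAA, was chosen after the sequences were seen and can overlap the first. This form occurred in 6 of 10 genes (Atf3, Chac1, Nupr1, Trib3, Sesn2 and Psat1). Its share was 11.4% of windows and 13% of the genes that have a window. The looser form was also in 17 of 70 other pathway genes with a window, a set that is void as a check for it as well. The palindrome TGACGTCA, the full cyclic AMP response element, occurred in the window of Ppp1r15a alone among the 10. It was in 1.79% of windows and in 2.03% of the genes that have a window. None of the 70 other pathway genes held it, but that set is void as a check here too. The stretches that hold these letters are given 5′ to 3′ on the gene's strand with matched letters in capitals. Windows of Atf4 and Ddit3 held none of the 3, and no element was in all 10. The stretches are shown so that the matches can be compared by letter and place:
Atf3: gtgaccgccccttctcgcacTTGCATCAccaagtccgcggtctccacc
Chac1: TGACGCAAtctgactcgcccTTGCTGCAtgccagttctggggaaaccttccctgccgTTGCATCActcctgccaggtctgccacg
Nupr1: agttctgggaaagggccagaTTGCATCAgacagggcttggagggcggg
Trib3: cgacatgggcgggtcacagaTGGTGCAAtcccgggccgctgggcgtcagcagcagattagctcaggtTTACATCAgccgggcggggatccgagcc
Asns: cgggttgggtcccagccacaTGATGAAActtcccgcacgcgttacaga
Psat1: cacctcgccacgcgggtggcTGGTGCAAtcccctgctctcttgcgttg
Sesn2: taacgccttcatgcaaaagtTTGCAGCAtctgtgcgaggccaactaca
Ppp1r15a: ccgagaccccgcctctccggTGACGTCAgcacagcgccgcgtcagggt

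The Atf3 stretch lies at chr1:191183416-191183463 on the minus strand, and its match starts at position -110 from the RefSeq start of the window. That of Chac1 lies at chr2:119350992-119351076 on the plus strand, and its TGATGNAA match starts at position -193. For Nupr1 the stretch is chr7:126625553-126625600 on the minus strand, with a match at position -110. The Trib3 stretch, chr2:152344019-152344113 on the minus strand, holds a looser match at position -33 and a TGATGNAA match at position 15. The latter is past the RefSeq start but upstream of the gene span given below. Asns has its match at position -23 within chr6:7693205-7693252 on the minus strand. Psat1, at chr19:15925168-15925215 on the minus strand, holds only the looser form, at position -136. Another window of Psat1, from a different RefSeq start, held no match. Sesn2 also holds only the looser form, at position -218 within chr4:132510647-132510694 on the minus strand. The Ppp1r15a stretch is chr7:45526253-45526300 on the minus strand, with its match at position -12. Atf3, Chac1 and Nupr1 carry the same 8 letters, TTGCATCA, and these were the 3 genes with ranges of 2 or more, which was noticed after both were known. Chac1 and Nupr1 were highest in clones 17 and 8, and Atf3 in clones 11 and 10. A match of letters shows no binding.

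Atf4 encodes the basic leucine zipper transcription factor at the centre of the pathway, at chr15:80255184-80257541 on the plus strand. Clone 17 had 202 CPM, clone 8 had 186 CPM, clone 1 had 124 CPM and clone 14 had 109 CPM, while the other 5 clones had 84.3 to 98.1 CPM. Clone 10 was lowest, but was not apart from clone 4, which stood at 1.01 times its level (0.930 to 1.10) and was itself lowest with unscaled totals and by TPM. Clones 17 and 8 stood above the rest, and clone 1 headed the remainder. The highest clone held 2.40 times the level of the lowest (95% counting interval 2.24 to 2.57), and 22.9% of tested genes had a wider range. The step from clone 8 down to clone 1 was 1.50-fold (1.41 to 1.61), while clone 17 was 1.09 times clone 8 (1.03 to 1.15). Of its 8 neighbouring pairs in the order of levels, 5 were apart beyond counting error. A retained-intron transcript, Atf4-203, took 8.02% of the gene's counts over all clones, with shares from 6.35% in clone 8 to 10.6% in clone 11, so the order of clones came mainly from the coding transcript Atf4-201.

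Ddit3 encodes CHOP, a zipper factor linked with ATF4 in prolonged stress, and lies at chr10:127290774-127296288 on the plus strand. It varied little. Clone 17 had 5.99 CPM, clone 4 had 5.62 CPM, clone 8 had 5.08 CPM and clone 13 had 5.05 CPM, while the remaining clones had 3.57 to 4.10 CPM. No neighbouring pair of clones was apart beyond counting error, though the highest clone held 1.68 times the level of the lowest (1.16 to 2.44) and the libraries differed as a set (chi-square test, adjusted p = 0.0097). Without clone 17 that adjusted p was 0.061. By TPM the order changed, with clone 6 highest at 33.1 TPM. In that clone, 3.91 counts assigned to Ddit3-204, a transcript of 105 bases, gave 25.7 of the 33.1 TPM, so CPM and not TPM is used for the order of Ddit3. The gene also overlaps Mars, the methionyl-tRNA synthetase gene on the opposite strand, by 68 bases. Mars was at 169 to 238 CPM, also highest in clone 17. The sources used here do not say whether counting used strand, so a part of the Ddit3 counts may belong to Mars.

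Atf3 encodes a stress-induced zipper factor that represses or activates with its partner, and lies at chr1:191170296-191218039 on the minus strand. It went its own way among the 10 genes. Clone 11 had 6.50 CPM from 94 counts and clone 10 had 5.20 CPM from 72 counts. Clone 17 had 1.66 CPM and clone 8 had 1.36 CPM, while the remaining clones had 0.380 to 1.07 CPM. Clones 11 and 10 were not apart from each other (1.25-fold, 0.910 to 1.72), while clone 10 stood 3.13-fold above clone 17 (1.94 to 5.25). Clone 11 held 17.1 times the level of clone 4 (7.08 to 53.9), and 1.23% of tested genes had a wider range. Clones 11 and 10 were also the clones with the highest summed level of 6 mesoderm and simple epithelium markers, at 554 and 503 CPM, against 29.4 to 106 CPM in the other clones. The summed fibroblast markers were 50.9 and 42.3 CPM in clones 11 and 10, against 1.02 to 8.66 CPM elsewhere. Within that sum, Col1a1 held 42.0 and 33.3 CPM and Col1a2 held 7.81 and 8.74 CPM in those clones. The other markers, Lum, Dcn and Postn, did not exceed 0.0766, 0.622 and 0.484 CPM in any clone. Whether other cell states had a part in the Atf3 level was not tested.

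Trib3 encodes a pseudokinase that is induced by ATF4 and CHOP and dampens ATF4, and lies at chr2:152337422-152344032 on the minus strand. Clone 17 had 18.8 CPM, clone 8 had 13.9 CPM and clone 1 had 11.3 CPM, while the remaining clones had 6.36 to 10.3 CPM, clone 10 being lowest. The highest clone held 2.95 times the level of the lowest (2.31 to 3.80). Clone 17 stood above clone 8 (1.35-fold, 1.12 to 1.64), and below that no neighbours were apart beyond counting error. Of the other 9 genes, Atf4 was the one Trib3 followed most closely: centred log2 levels of these 2 genes differed by a root mean square of 0.17 over the 9 clones, against 0.24 for Trib3 and Asns.

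Chac1 encodes an enzyme that breaks down glutathione and lies at chr2:119351229-119354381 on the plus strand. Clone 17 had 5.63 CPM from 78 counts, clone 8 had 4.01 CPM from 56 counts and clone 1 had 2.02 CPM from 21 counts, while the remaining clones had 0.684 to 1.37 CPM. The order of its first 3 clones was that of Atf4 and Trib3, but the spread was wider, with 8.23 times the level in clone 17 as in clone 4 (4.12 to 18.7). The third place of clone 1 was within counting error, as clone 1 was not apart from clone 10 (1.47-fold, 0.752 to 2.89). For Trib3 too, clone 1 was not apart from the next clone, 14 (1.10-fold, 0.856 to 1.42). Clones 17 and 8 were not apart (1.40-fold, 0.983 to 2.02), and clone 8 was above clone 1 (1.99-fold, 1.19 to 3.46).

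Nupr1 encodes a small stress-induced chromatin protein and lies at chr7:126623249-126630861 on the minus strand. It was scarce in 7 clones and higher in the other 2: clone 17 had 4.33 CPM (60.0 counts) and clone 8 had 4.22 CPM (59.0 counts), against 1.37 CPM for clone 10, 1.17 CPM for clone 14 and 0.192 to 0.610 CPM for the remaining clones. Clones 17 and 8 could not be told apart (1.02-fold, 0.703 to 1.49), and clone 8 stood 3.08-fold above clone 10 (1.81 to 5.47). Clone 17 held 22.6 times the level of clone 1, but clone 1 had 2.00 counts and the counting interval ran from 5.98 to 191. A transcript annotated for nonsense-mediated decay took 28% of the gene's counts overall and all of them in clones 1 and 6, so the coding transcript Nupr1-201 had no count assigned in those 2 clones.

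Asns encodes asparagine synthetase, which makes asparagine from aspartate and glutamine, and lies at chr6:7675169-7693254 on the minus strand. Clone 17 had 367 CPM and clone 8 had 366 CPM, clone 4 had 272 CPM and clone 14 had 253 CPM, while the remaining clones had 196 to 227 CPM. Clones 17 and 8 were not apart (1.00-fold, 0.964 to 1.04), and clone 8 stood 1.35-fold above clone 4 (1.29 to 1.40). The highest clone held 1.87 times the level of the lowest (1.79 to 1.96). The median of the tested genes on chromosome 6 deviated from its mean over clones by -0.05 log2 units in clone 17, -0.08 in clone 8, 0.16 in clones 1 and 13, 0.11 in clone 6 and -0.07 to -0.06 in clones 4, 10, 11 and 14. The part of this shift in the Asns level was not tested. Clone 4 differed in the transcripts used: Asns-207 took 383 counts there, 10.7% of the gene's counts and 126 TPM, while it took 11.4 counts in clone 11, 0.4% of the gene's counts.

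Psat1 encodes phosphoserine aminotransferase, the second enzyme of serine synthesis, and lies at chr19:15904678-15947337 on the minus strand. Clone 17 had 254 CPM, clone 8 had 239.9 CPM, clone 4 had 202 CPM and clone 14 had 161 CPM, while the remaining clones had 184 to 199 CPM. The highest clone held 1.58 times the level of the lowest (1.50 to 1.67), the narrowest range of the 10 genes, and 60.9% of tested genes had a wider one. Clone 14 was lowest here, although it was the highest or second highest clone for Ppp1r15a and Sesn2.

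Sesn2 and Ppp1r15a encode proteins that limit growth or end the response, and clone 14 joined clones 17 and 8 for both. Sesn2, at chr4:132492032-132510501 on the minus strand, encodes a leucine-binding inhibitor of the growth kinase mTORC1. Clone 17 had 143 CPM, clone 14 had 139 CPM and clone 8 had 136 CPM, against 89.9 to 106 CPM in the other clones. Neighbours among these 3 clones were not apart, and clone 8 stood 1.28-fold above clone 10 (1.20 to 1.38). Ppp1r15a, at chr7:45522916-45526268 on the minus strand, encodes GADD34, which brings a phosphatase to eIF2 and so restores translation. Clone 14 had 102 CPM, clone 17 had 101 CPM and clone 8 had 96.7 CPM, against 53.1 to 68.5 CPM elsewhere, and clone 8 stood 1.41-fold above clone 10 (1.30 to 1.53). Both genes thus had 3 high clones and 6 low ones, with the step between them beyond counting error. Ppp1r15a overlaps Tulp2 on the opposite strand by 717 bases, but Tulp2 reached at most 5.41 CPM, in clone 4.

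**Figure D2:**
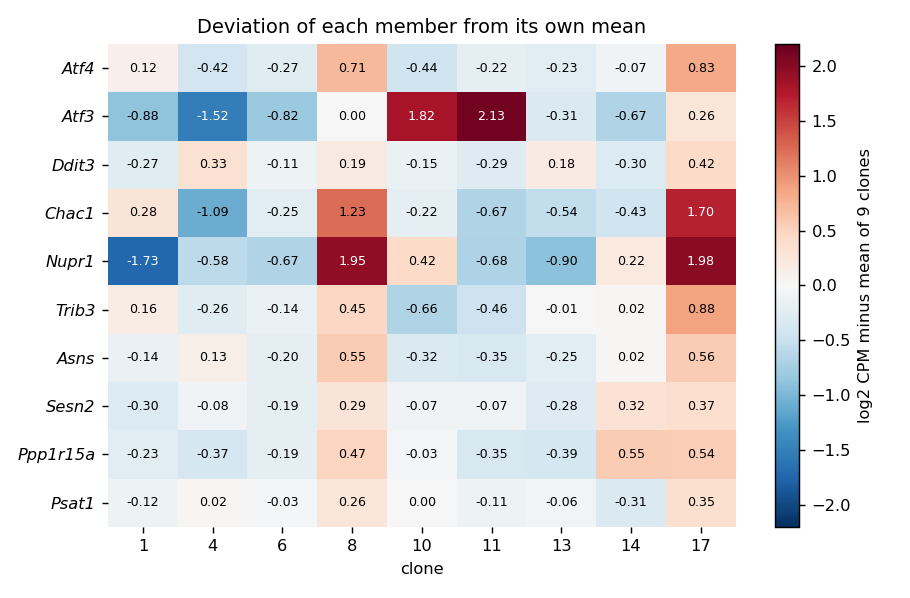
Heat map of the 10 genes (rows) in the 9 clones (columns), coloured and printed as the deviation of log2 CPM from the gene's own mean over the clones. Clone 17 is above the mean for all 10 genes, clone 8 for 9 of 10, and clone 6 for none; Atf3 is highest in clones 11 and 10. The median deviation of all tested genes was between -0.02 and 0.02 in every clone.

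Read by clone, the median deviation of the 10 genes from their own means was 0.55 log2 units for clone 17 and 0.46 for clone 8. It was -0.03 for clone 14 and ranged from -0.32 to -0.11 elsewhere. The median over all tested genes lay between -0.02 and 0.02 in every clone. Tested genes at large were thus above their mean about as often as below it, though their exact share was not counted. Clone 17 was above the mean for 10 of 10 genes, clone 8 for 9 of 10 and clone 14 for 5 of 10, while clone 6 was below it for all 10. Depth was 14050330 counts for clone 17, 14273223 for clone 8, 13959687 for clone 14 and 14309662 for clone 6, and 10783718 to 13802506 in the other 5 clones. The part of depth in these levels was not tested. The summed level of the 10 genes was 1105 CPM for clone 17, 1054 CPM for clone 8, 779 CPM for clone 14 and 659 to 734 CPM elsewhere. Most of this sum came from Asns, Psat1 and Atf4. Clones 17, 8 and 14 parted company over the members: clone 14 shared the high Sesn2 and Ppp1r15a levels, but had 253 CPM of Asns, 1.17 CPM of Chac1 and the lowest Psat1. Its Ddit3 level was also lowest, but was not apart from that of clone 11 (1.01-fold, 0.668 to 1.52). For Ddit3, clone 17 stood above clone 14 (1.68-fold, 1.16 to 2.44), while clone 8 was not apart from it (1.42-fold, 0.976 to 2.09).

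Among 9826 protein-coding genes averaging at least 5 CPM, the genes nearest in pattern were found by the root mean square difference of centred log2 CPM over the 9 clones, where 0 is an identical pattern. For Atf4 these were Tiparp, Gabbr1 and Bcar3, each at 0.15, where a gene that never varied would have been at 0.44. For Trib3 they were Sh3tc1 at 0.11 and Mpc1 and Sap25 at 0.15, with 0.44 for a flat gene. Asns was closest to Zfp418 at 0.08 and to Zmym6 and Zfp606 at 0.11, against 0.33 for a flat gene. Ppp1r15a was closest to Bcl7a at 0.07 and to Armc5 and Rarg at 0.08, against 0.38, and Sesn2 to Pggt1b at 0.06 and to Map3k7 and Mtmr2 at 0.07, against 0.25. For Psat1 the nearest were Arl14ep at 0.09 and Prkar2a and Acadsb at 0.10, against 0.19. The nearest genes of Ddit3 were Pfkfb2 at 0.13 and Mars and Usp3 at 0.17, against 0.27.

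The scarce members, whose counting error enters the distance, had more distant neighbours. Atf3 was nearest to Itga3 at 0.43, Egfr at 0.44 and Anxa3 at 0.45, against 1.17 for a flat gene. Itga3 and Egfr encode a cell adhesion receptor and a growth factor receptor. Chac1 was nearest to Ankrd33b at 0.39, Smim10l1 at 0.42 and Abca1 at 0.45, against 0.86, and Nupr1 to genes that included Pou4f2 at 0.45 and Olfr1385 at 0.55, against 1.20. Among the members themselves, the distance from Atf4 was 0.17 to Trib3, 0.24 to Asns, 0.31 to Ppp1r15a, 0.33 to Sesn2, 0.34 to Psat1, 0.41 to Ddit3, 0.47 to Chac1, 0.94 to Nupr1 and 1.26 to Atf3.

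Beyond the 10 genes, 92 other genes of the pathway in 8 lists were examined, of which 90 were tested. A range of 1 or more was reached by 20 of the 90 (22.2%), against 35.2% of all tested genes. Clone 17 was the highest clone for 28 of the 90 (31.1%), against 11.7% of all tested genes, and clones 17 and 8 were the 2 highest for 30 (33.3%), against 11.4%. Most of these genes thus had small ranges, yet peaked in clone 17 more often than tested genes at large did. Both clones were singled out after the values were seen, so these shares are descriptive only.

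**Figure D3:**
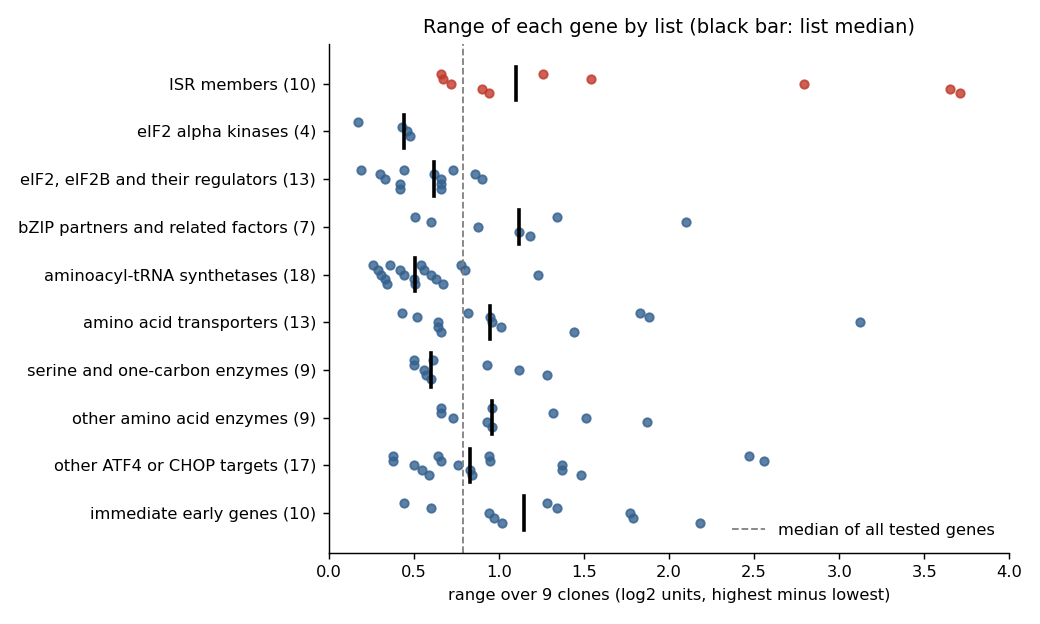
Range over the 9 clones in log2 CPM (x axis) of each tested gene, with 1 point per gene, grouped by list (y axis); black bars are list medians and the dashed line is the median of all tested genes, 0.79. The median of the 10 integrated stress response genes is 1.10, with Nupr1 and Atf3 farthest out, while those of the kinases and of the tRNA synthetases are 0.45 and 0.50.

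The eIF2 kinases, the sensors upstream of Atf4, had a median range of 0.45. None of the 4 had a range of 1 or more, against 35.2% of all tested genes. Eif2ak1, the haem-regulated kinase, lay between 60.3 and 67.8 CPM and did not differ between libraries beyond counting error (chi-square test, adjusted p = 0.35). Eif2ak3, the endoplasmic reticulum kinase PERK, lay between 35.3 and 47.6 CPM, Eif2ak4, the amino acid sensor GCN2, between 31.6 and 44.2 CPM, and Eif2ak2, the RNA-activated kinase, between 20.9 and 28.9 CPM. Of 13 genes for eIF2, its exchange factor eIF2B and their regulators, none had a range of 1 or more, against the same 35.2%. Gcn1l1, whose product activates GCN2, had 332 CPM in clone 14 and 178 CPM in clone 1. Ppp1r15b, the constitutive partner of Ppp1r15a in restoring eIF2, was at 213 CPM for clone 8, 204 CPM for clone 17 and 201 CPM for clone 14, with the lowest level of 129 CPM for clone 11. Eif2b4, an eIF2B subunit, ran otherwise, with 101 CPM in clone 4 and 55.8 CPM in clone 8. Eif2s2, a subunit of eIF2, had 656 CPM in clone 17 and 415 CPM in clone 1.

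Of 7 zipper factors that can pair with or resemble ATF4, 4 had a range of 1 or more, against 35.2% of all tested genes. Atf5, a close relative of Atf4, had 12.6 CPM in clone 17, the highest clone for Atf4 too, and 5.71 CPM in clone 10. Cebpa was highest in clone 10 at 2.02 CPM and lowest in clone 8 at 0.358 CPM. Cebpb was highest in clone 11 at 3.69 CPM and lowest in clone 14 at 1.54 CPM. Jdp2 was lowest in clone 10, as Atf4 was, at 1.66 CPM. Its highest clone was 8 at 4.42 CPM, close to clone 13 at 4.36 CPM, clone 1 at 4.22 CPM and clone 17 at 4.04 CPM.

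Of 18 aminoacyl-tRNA synthetase genes, which charge tRNAs with amino acids, 8 were highest in clone 17, against 11.7% of all tested genes. A range of 1 or more was reached by 1 of the 18, against 35.2%. That gene was Aars, for alanine, with 753 CPM for clone 17, 709 CPM for clone 8 and 617 CPM for clone 14, against 321 CPM for clone 1, a 2.34-fold span (2.26 to 2.44). Aars lies on chromosome 8, whose 713 tested genes had a median deviation of 0.30 in clones 17 and 14, 0.27 in clone 8 and 0.24 in clone 10, against -0.27 to -0.07 in the other clones; the part of that shift in the Aars level was not tested. Nars was at 394 CPM for clone 17 and 348 CPM for clone 8, with its lowest level, 248 CPM, for clone 1. Yars was at 242 CPM for clone 17 and 222 CPM for clone 8, with its lowest level, 140.3 CPM, for clone 11. Cars had 131 CPM in clone 17 and 75.3 CPM in clone 10.

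Of 13 amino acid transporter genes, 5 had a range of 1 or more, against 35.2% of all tested genes. Clone 17 was the highest clone for 5 of the 13, against 11.7%. Slc7a1, which takes up arginine and lysine, had 93.1 CPM in clone 17 and 68.4 CPM in clone 8, against 26.1 CPM in clone 4, a 3.57-fold span (3.17 to 4.04). Slc6a9, a glycine transporter, was scarce, with 3.14 CPM for clone 17 and 0.230 CPM for clone 13 (13.7-fold, 4.43 to 69.6). Slc1a4 and Slc36a4, which carry small neutral amino acids and proline or tryptophan, were highest in clone 11 at 23.7 and 4.01 CPM, against 6.34 and 1.38 CPM in clone 14. Slc1a4 lies on chromosome 11, whose 1071 tested genes had a median deviation of -0.34 to -0.32 in clones 8, 14 and 17, against 0.12 to 0.21 elsewhere, and the part of that shift was not tested.

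Psat1 works beside other enzymes of serine and one-carbon metabolism. Of 9 such genes, 2 had a range of 1 or more, against 35.2% of all tested genes. The median range was 0.60, against 0.66 for Psat1. Mthfd2, a mitochondrial folate enzyme, had 114 CPM in clone 17 and 100.3 CPM in clone 8, against 47.0 CPM in clone 1, a 2.42-fold span (2.19 to 2.69). Aldh1l2, another mitochondrial folate enzyme, had 2.05 CPM in clone 8 and 0.867 CPM in clone 14, but did not pass the chi-square test (adjusted p = 0.12). Shmt2, which moves a carbon from serine to folate, was at 184 CPM for clone 17 and 96.4 CPM for clone 11, and Phgdh, the first enzyme of serine synthesis, had 217 CPM in clone 17 and 142 CPM in clone 11.

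Of 9 other amino acid enzymes, 6 were highest in clone 17, against 11.7% of all tested genes. A range of 1 or more was reached by 3 of the 9, against 35.2%. Gpt2, a mitochondrial alanine aminotransferase, had 108 CPM in clone 17 and 98.9 CPM in clone 8, against 29.4 CPM in clone 11, a 3.66-fold span (3.29 to 4.09). Gpt2 lies on chromosome 8, with the shift given above. Cth, which makes cysteine from cystathionine, had 99.3 CPM in clone 17 and 85.1 CPM in clone 8, against 34.7 CPM in clone 10 (2.86-fold, 2.58 to 3.18). Ass1, which makes argininosuccinate from citrulline, had 322 CPM in clone 17 and 284 CPM in clone 8, against 129 CPM in clone 11. Pycr1, a proline synthesis enzyme on chromosome 11, had 7.69 CPM in clone 8 and 3.88 CPM in clone 14.

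**Figure D4:**
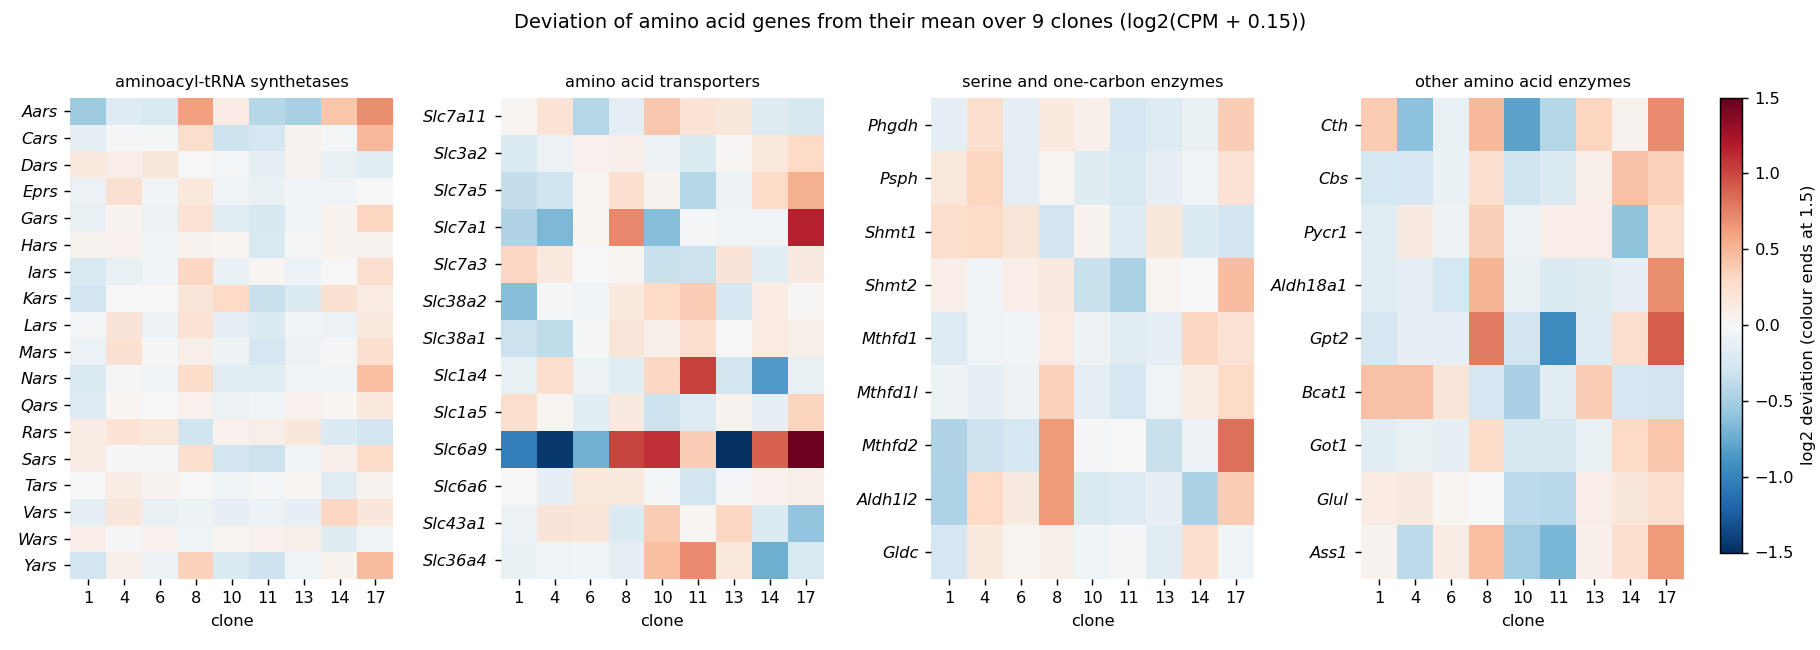
Heat maps of tRNA synthetases, amino acid transporters, serine and one-carbon enzymes and other amino acid enzymes (rows) in the 9 clones (columns), coloured by the deviation of log2(CPM + 0.15) from each gene's mean over clones. Red marks a clone above the gene's mean, and 8 of 18 synthetase genes, 5 of 13 transporters, 3 of 9 serine and one-carbon genes and 6 of 9 other enzymes are highest in clone 17. Of all tested genes, 11.7% are highest there.

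Other known targets of ATF4 or CHOP were mixed. Of 19 listed, 17 were tested and 5 had a range of 1 or more, against 35.2% of all tested genes. Clone 17 was the highest clone for 3 of the 17, against 11.7%. Gdf15, a secreted stress hormone, had 2.81 CPM in clone 17 and 1.93 CPM in clone 8, against 0.384 CPM in clone 1, and lies on chromosome 8, with the shift given above. Stc2, a secreted glycoprotein on chromosome 11 (with the shift given above), was at 16.2 CPM for clone 1, 4.33 CPM for clone 17, 3.87 CPM for clone 8 and 2.62 CPM for clone 14, so that clones 17 and 8, the highest for Atf4, were low for Stc2. Ddit4, an inhibitor of mTORC1, was at 47.9 CPM for clone 4 and 22.7 CPM for clone 17, with its lowest level, 18.5 CPM, for clone 8. Vegfa, a blood vessel growth factor, had 14.5 CPM in clone 1 and 5.12 CPM in clone 4. Fgf21, a hormone induced by ATF4 in liver, had no counts in any clone.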

How the data were processed

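Poly(A) RNA from 9 clones, each 1 library made with a stranded kit per the labels' protocols, was analysed. The submitters' processing notes name kallisto 0.43.1, Trimmomatic 0.33, FastQC and CASAVA 1.8, and list GRCm38 and mm10 as builds. The deposited tables hold 115270 transcripts; per the file headers each has an estimated count, which need not be whole, and a TPM value scaled for length and depth. Neither the authors' annotation release nor their use of strand in counting is given in the sources used here.

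Transcript identifiers were looked up in GENCODE M21 on GRCm38, which held 113580 of them (98.53%), and estimated counts and TPM were summed to 35532 gene symbols. The transcripts without a match, with 0.641 to 0.773% of each library's counts, were left out. CPM used TMM-scaled library sizes (edgeR 4.0.16 in R 4.3.3; factors 0.972522 to 1.055425), and log2 CPM a prior count of 2. Ranges and tests used the 13363 genes averaging at least 1 CPM. Each level and fold has an exact 95% Poisson interval on the estimated counts. The interval covers counting error only, and not kallisto's division of reads between similar transcripts. The chi-square test set the 9 libraries against Poisson variance with Benjamini-Hochberg adjustment. It compares libraries, not conditions. The intervals of neighbouring clones were not adjusted for their number.

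The members and lists were chosen with earlier results of these data known. Besides the 10 members, the text names the 4 genes of largest range in each list, every list gene with a range of 2 or more, and the 3 nearest protein-coding genes per member; ribosomal protein and predicted genes were left out of the last. Fgf21 and the overlapping genes were named outside that rule, and 1 gene it named is not reported here. Correlations across clones were not computed, since the clones fall into separate sets. Promoter windows came from RefSeq (GRCm38.p6). Alternatives were median-ratio size factors (DESeq2 1.42.0), unscaled totals, log2(TPM + 1), a prior count of 0.5, no filter or a mean of 5 CPM, a negative binomial variance with dispersion 0.01, and each clone left out. Steps were tested on simulated data. Python 3.11.15, numpy 2.4.6, pandas 2.3.3, scipy 1.17.1 and matplotlib 3.10.9 were used.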

Additional observations from a re-analysis of the deposited data

How the results depend on the processing

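The count of 5 members with a range of 1 or more was 2 with a mean of 5 CPM required, where 23.3% of all tested genes passed and only 6 members were tested, since that filter removes Atf3, Ddit3, Chac1 and Nupr1. It was 6 with log2(TPM + 1) and 5 under the other alternatives, each clone left out included. The count of 3 with a range of 2 or more was 0 at 5 CPM, by the same construction, against 3.39% of all genes, and 3 otherwise, with Ddit3 passing and Chac1 not with log2(TPM + 1). The median range of 1.10 was 0.92 at 5 CPM, 1.32 with log2(TPM + 1) and 1.03 to 1.10 with a clone left out. At 5 CPM the number of members beyond counting error was 6 of the 6 tested. With a dispersion of 0.01 it was 8, without Ddit3 and Psat1 (adjusted p = 0.2 and 0.096, chi-square test), where 45.1% of all genes passed. Without clone 17 it was 9, Ddit3 being lost (adjusted p = 0.061), and 10 without any other clone. Of 130 recomputed ranges of single members, 123 lay inside the counting interval. The others with log2(TPM + 1) were Atf3 2.07, Ddit3 2.15 and Chac1 1.93. For Ddit3, 25.7 of the 33.1 TPM in clone 6, its highest clone by TPM, came from Ddit3-204. The cause was not tested for the Atf3 and Chac1 values. Without clone 17 the others were Atf4 1.14, Trib3 1.11 and Psat1 0.58, and without clone 14 Psat1 0.46. None changed sign, which a range cannot do. Lowest counts of 5 in Atf3 and 2.00 in Nupr1 limit how well low clones can be ordered, and with 1 library per clone no spread between cultures is known. No paired analysis was possible because the labels give the clones no groups and no replicate numbers.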

Other observations

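Immediate early genes, which answer growth factors and many stresses within a short time and include partners of Atf3, were listed beside the pathway. Of 12 listed, 10 were tested and 6 had a range of 1 or more, against 35.2% of all tested genes. Fosb had 3.46 CPM in clone 11 and 0.644 CPM in clone 8. Jun, which can pair with ATF3, had 24.4 CPM in clone 11 and 21.8 CPM in clone 10, against 9.57 CPM in clone 4. Klf6 had 121 CPM in clone 10 and 109.6 CPM in clone 11, against 34.8 CPM in clone 13. Ier2, on chromosome 8, had 161 CPM in clone 17 and 46.9 CPM in clone 1.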
